A study of Rattus norvegicus with 32 samples.

Results

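The 10 genes followed here in rat liver mark the hepatocytes around the central vein: Glul, Slc1a2, Rhbg, Oat, Cyp1a2, Cyp2e1, Gulo, Axin2, Lgr5 and Tbx3. They were chosen by name, as genes of the zone under Wnt control, with earlier results of these data known. All 10 were among the 17327 genes of the count table, and all 10 were among the 11002 genes that passed the filter on low counts. Liver RNA was sequenced from Charles River Sprague Dawley rats under basal conditions. The knockouts (KO) carried a CRISPR/Cas9 disruption of Serpina6, the gene of corticosteroid-binding globulin (CBG), the plasma carrier of glucocorticoids, and wild types (WT) carried the intact gene. The 8 groups were 60-day KO males, WT males, KO females and WT females, and 30-day KO males, WT males, KO females and WT females, with 4 libraries each. No source used here says whether the KO rats descend from 1 founder or whether the 4 rats of a group were littermates, so p-values measure the spread between these libraries.

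Blood enters the liver lobule at the portal tracts and leaves by the central vein, and hepatocytes along this path express different genes. Endothelial cells of the central vein release Wnt ligands and R-spondin 3, which hold β-catenin active in the hepatocytes nearest to them. Those hepatocytes take up ammonium and fix it into glutamine, carry much of the cytochrome P450 content, and express Wnt feedback genes, while periportal hepatocytes make urea and glucose.

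The libraries held 12951969 to 21954929 reads assigned to genes. The 30-day libraries held at least 16806943 and the 60-day libraries at most 17133332, and the ages also had sample titles of a different form, so age and any processing that went with it cannot be told apart. Serpina6 had 25.5 to 131 CPM in KO (reads scaled to the library's total and by trimmed mean of M-values) and 421 to 1358 CPM in WT, so every library matched its genotype label. The summed CPM of 8 hepatocyte markers lay between 200973 and 294604 in all 32 libraries. KO female replicate 1 of 60 days stood apart: 14 photoreceptor markers summed to 2128 CPM there and to at most 12.2 CPM in any other library, and none of the 14 was at 0 in it. The summed CPM of 8 kidney and pancreas markers was also uneven, at 6.33 to 48.5 in 60-day KO females, 35.1 to 220.04 in 60-day WT females and at most 17.1 in any library of the other 6 groups. In 60-day WT females nearly all of it was Cpa1, a pancreatic carboxypeptidase gene, with 34.7 to 219 CPM, highest in WT replicates 3 and 4. Cpa1 had 3.01 to 46.1 CPM in 60-day KO females. Cela1, another gene of that list, had 1.93 to 3.97 CPM in those KO females and 0.473 to 1.38 CPM in the WT females. In KO replicate 3 Cela1, at 3.20 CPM, exceeded Cpa1. Prss1 (trypsinogen) and Ins1 (insulin) were at 0 in all 32 libraries. Because of its photoreceptor RNA, each result on 60-day KO females is also given without KO replicate 1 where it changes a call.

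The stretches of DNA before the members' transcription starts are shown because Wnt signalling reaches its target genes through TCF/LEF proteins, which bind known letters. RefSeq windows of the 250 bases before the start, on the GRCr8 build, were found for 7 of the 10 members, with a pair of alternative starts for Slc1a2 and for Glul. Gulo, Lgr5 and Tbx3 were not matched. CTTTGAT or CTTTGAA, read on both strands, occurred in 5 of these 9 windows, against 7.58% of 33469 windows of the same length over all genes. The 5 windows are given with each match in capitals, 5′ to 3′ along the gene's strand.
Slc1a2 chr3:109507697-109507946 (+ strand): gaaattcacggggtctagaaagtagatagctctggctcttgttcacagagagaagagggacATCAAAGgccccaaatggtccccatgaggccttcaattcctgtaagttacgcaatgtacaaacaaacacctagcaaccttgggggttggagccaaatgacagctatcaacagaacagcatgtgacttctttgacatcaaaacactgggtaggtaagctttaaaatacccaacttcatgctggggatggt
Cyp1a2 chr8:66978150-66978399 (- strand): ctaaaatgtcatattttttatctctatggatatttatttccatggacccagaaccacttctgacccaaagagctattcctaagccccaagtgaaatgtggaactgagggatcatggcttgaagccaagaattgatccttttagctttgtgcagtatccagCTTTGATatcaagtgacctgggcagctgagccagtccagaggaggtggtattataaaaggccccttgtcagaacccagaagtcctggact
Glul chr13:68519250-68519499 (+ strand): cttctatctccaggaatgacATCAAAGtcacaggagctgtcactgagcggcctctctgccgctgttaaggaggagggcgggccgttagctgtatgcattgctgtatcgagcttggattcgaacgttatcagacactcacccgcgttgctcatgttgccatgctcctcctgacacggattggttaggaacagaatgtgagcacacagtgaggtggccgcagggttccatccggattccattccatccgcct
Cyp2e1 chr1:205269717-205269966 (+ strand): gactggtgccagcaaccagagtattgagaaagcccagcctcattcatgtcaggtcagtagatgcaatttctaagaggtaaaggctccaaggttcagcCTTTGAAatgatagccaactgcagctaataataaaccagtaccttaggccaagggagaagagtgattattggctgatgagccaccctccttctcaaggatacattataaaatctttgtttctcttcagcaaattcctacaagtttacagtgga
Axin2 chr10:94398535-94398784 (+ strand): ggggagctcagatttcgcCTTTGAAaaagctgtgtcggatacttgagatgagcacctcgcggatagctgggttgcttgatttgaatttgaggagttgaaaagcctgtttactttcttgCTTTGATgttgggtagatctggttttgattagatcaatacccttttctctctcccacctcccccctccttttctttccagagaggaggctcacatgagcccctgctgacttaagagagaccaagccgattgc
The match began 189 bases before the start in the second Slc1a2 window, 90 before it in Cyp1a2, 230 before it in the first Glul window and 153 before it in Cyp2e1. Axin2 had 2 matches, 232 and 132 bases before the start, and 0.478% of all windows held 2 or more. The other Slc1a2 and Glul windows and those of Oat and Rhbg held neither spelling. Those other windows lie at chr3:109459859-109460108 for Slc1a2 and chr13:68575816-68576065 for Glul. Which of the alternative starts is used in liver was not determined here. GCGTG, the core letters bound by the Ah receptor, occurred in 1 of the 9 windows, the first of Slc1a2, against 25.9% of all windows. TGTTCT, a glucocorticoid receptor half-site, occurred in 1, the second of Slc1a2, against 17.5%. A match describes the letters and is not a measured site.

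In 60-day females, 4 of the 10 genes were lower in KO than in WT and none was higher, by edgeR, DESeq2 or limma-voom. Slc1a2 was 5.07-fold lower and Cyp1a2 2.13-fold lower, and Gulo and Glul were 1.58-fold and 1.57-fold lower. Calls rest on edgeR's quasi-likelihood test with Benjamini-Hochberg adjustment over 11002 genes at 0.05, in which 3.29% of all genes were called lower and 6.77% in either direction. Of the 10 fold changes, 8 were negative, with a median of -0.65 on the log2 scale, against a median of 0.01 over all genes. An unadjusted p below 0.05 was reached by 7 members in the lower direction and by 1, Oat, in the higher. The share of all genes at that unadjusted threshold was not computed in any comparison, so these counts have no background here. In bulk tissue, fewer cells of a type and less RNA per cell cannot be told apart.

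Among the genes of glutamine and ammonium handling, Slc1a2 encodes GLT-1, a glutamate transporter that supplies glutamate to the perivenous cells. It had 3.90, 2.32, 1.91 and 1.47 CPM in 60-day KO females, against 5.36, 18.1, 10.3 and 14.5 CPM in WT females. Every KO library was below every WT library, and the highest KO value was in replicate 1, the library with photoreceptor RNA. The log2 fold change was -2.34 ± 0.33 (SE; adjusted p = 6.2e-05, edgeR). WT females of 60 days stood apart from the other 7 groups in the level of Slc1a2: those 7 had means of 1.18 to 2.40 CPM, against 12.1 ± 5.5 CPM (SD, n = 4), and each of the 7 overlapped its neighbour in the order. Slc1a2 is also expressed in retina and brain. The summed CPM of 8 Müller glia and astroglia markers was 82.3 in KO replicate 1, 42.2 to 46.9 in the other KO females, 39.6 to 54.1 in WT females and up to 110 in 60-day WT males. The 4 calls held without KO replicate 1. Without WT replicate 3, the library highest in Cpa1, the 4 also held, and without WT replicate 4, Slc1a2, Cyp1a2 and Gulo did.

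Glul encodes glutamine synthetase, which fixes ammonium and marks the hepatocyte layers next to the central vein. It had 433, 321, 439 and 414 CPM in 60-day KO females, against 419, 611, 639 and 852 CPM in WT females. The groups overlapped through WT replicate 1, which at 419 CPM lay among the KO values. The log2 fold change was -0.65 ± 0.16 (SE; adjusted p = 0.012, edgeR), and without WT replicate 4, the highest, it was -0.47 with an adjusted p of 0.0816. Over the 8 groups, Glul was highest in 60-day WT females, 630.0 ± 177 CPM, and lowest in 60-day WT males, 297 ± 53.2 CPM (SD, n = 4 each).

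Rhbg, an ammonium transporter, and Oat, ornithine aminotransferase, which leads ornithine towards glutamate, did not pass the test. Rhbg had 1.95, 2.90, 2.89 and 4.61 CPM in 60-day KO females, against 1.42, 4.84, 5.08 and 12.4 CPM in WT females (log2 fold change -0.93 ± 0.37, edgeR adjusted p = 0.137). The lowest and the highest of these 8 values were both WT, so the WT spread exceeded the difference. The Rhbg result depended on which WT library was left out: without WT replicate 1 the edgeR adjusted p was 0.00957, and without WT replicate 4 it was 0.678. Oat had 1007, 1251, 666 and 1257 CPM in 60-day KO females, against 962, 669, 481 and 480.5 CPM in WT females, with overlapping groups. Its log2 fold change of 0.69 ± 0.31 had the opposite sign to those of Slc1a2, Glul and Rhbg (edgeR adjusted p = 0.204).

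Of the P450 genes, Cyp1a2, which oxidises caffeine and aromatic amines, had 340.3, 554, 575 and 467 CPM in 60-day KO females, against 762, 1111, 1081 and 1177 CPM in WT females. No KO library reached the lowest WT library. The log2 fold change was -1.09 ± 0.16 (SE; adjusted p = 1.35e-04, edgeR). Cyp2e1, which oxidises ethanol and acetone, had 1804, 3750.3, 3386 and 2016 CPM in KO females, against 2809.8, 3897, 4885 and 4087 CPM in WT females. Its groups overlapped and it was not called (log2 fold change -0.52 ± 0.23, edgeR adjusted p = 0.184).

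Gulo encodes L-gulonolactone oxidase, the last enzyme of vitamin C synthesis in rats. It had 268, 443, 353 and 354 CPM in 60-day KO females, against 461, 681, 674 and 422 CPM in WT females. The groups overlapped, KO replicate 2 lying above WT replicate 4. The log2 fold change was -0.66 ± 0.15 (SE; adjusted p = 0.00797, edgeR).

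Among the Wnt genes, Axin2, a feedback inhibitor that scaffolds β-catenin degradation, had 12.7, 8.77, 15.6 and 12.8 CPM in 60-day KO females, against 15.3, 16.0, 26.4 and 14.9 CPM in WT females. It was not called (log2 fold change -0.54 ± 0.19, edgeR adjusted p = 0.0862). Without KO replicate 3 the adjusted p was 0.0483, and without WT replicate 3 it was 0.384. Tbx3, a T-box repressor downstream of Wnt signalling, had 15.9, 12.1, 16.3 and 17.0 CPM in KO females, against 20.5, 23.9, 28.5 and 24.5 CPM in WT females. Its groups did not overlap, but its log2 fold change of -0.67 ± 0.35 did not pass the test (edgeR adjusted p = 0.284). Groups were apart for 3 of the 10 genes, Slc1a2, Cyp1a2 and Tbx3, against 8.43% of all genes in this comparison. Lgr5, an R-spondin receptor, had 1 to 21 reads in any library, too few to read a direction in this comparison (log2 fold change 0.34 ± 0.53, edgeR adjusted p = 0.77).

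**Figure D1:**
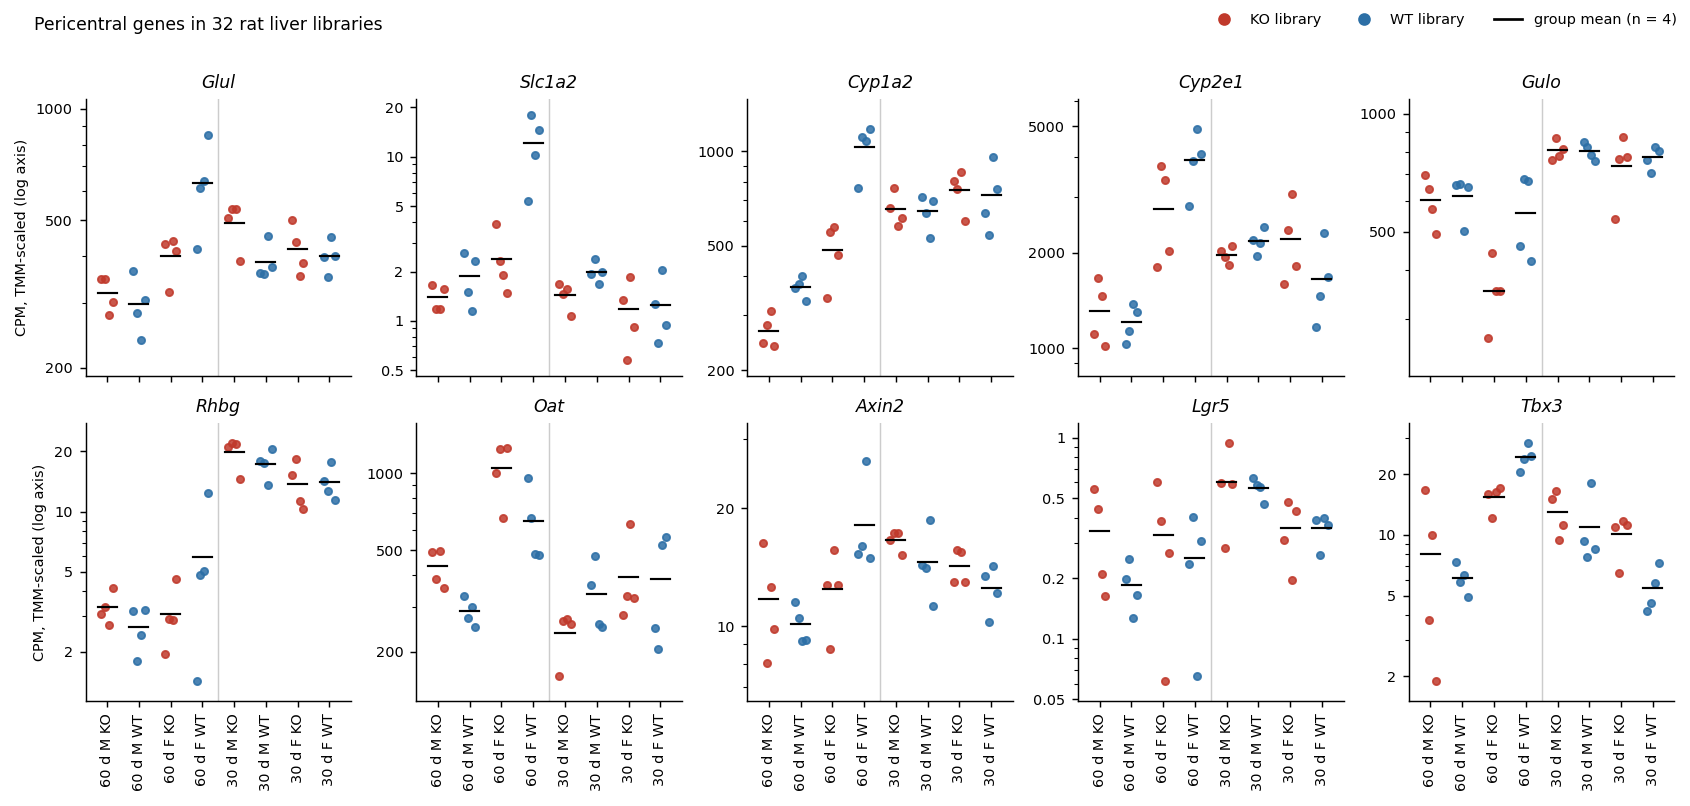
Expression of the 10 pericentral genes in 32 libraries (points; CPM scaled by trimmed mean of M-values, log axis that differs between panels), with 8 groups along the horizontal axis, KO in red, WT in blue and a bar at each group mean of 4 libraries. Slc1a2 lies at 5.36 to 18.1 CPM in 60-day WT females and below 4 CPM in the other 7 groups.

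Expression of clock genes differed between the same libraries. Of 7 evening clock genes tested in 60-day females, 4 were higher in KO: Dbp (log2 fold change 2.27), Per3 (1.80), Per2 (1.60) and Tef (0.94), with edgeR adjusted p-values of 6.96e-04 to 0.0026. Over all genes, 6.77% were called in either direction. Npas2, a morning clock activator, was lower (-0.54, adjusted p = 0.0299), 1 of 4 in its list, and was called in 2 of 8 edgeR fits that left out a library. The clock score, the mean log2 CPM of the evening genes minus that of the morning genes, was -0.84 ± 0.78 in KO females and -2.01 ± 0.49 in WT females (SD, n = 4 each). These groups overlapped, and the highest score, 0.12, was in KO replicate 1, the library with photoreceptor RNA. The labels used here give no hour of collection. With the score as a covariate, Slc1a2 (log2 fold change -2.31, edgeR adjusted p = 0.0155) and Cyp1a2 (-0.81, adjusted p = 0.0393) were still called, while Gulo (-0.66, adjusted p = 0.106) and Glul (-0.56, adjusted p = 0.207) were not. Calls over all genes fell from 745 to 141 in that fit. Rhbg had a log2 fold change of -0.10 in that fit. In a fit to the 8 libraries of this comparison alone, Cyp1a2 was the single member called (adjusted p = 0.0276, edgeR), and Slc1a2 had an adjusted p of 0.0686. Calls over all genes fell to 56 in this fit. The mean clock score was also higher in KO in the other comparisons of KO with WT, with smaller gaps than in 60-day females. It was -1.18 in KO and -1.84 in WT in 30-day females, and -0.85 and -1.33 in 30-day males. In 60-day males it was -1.74 in KO and -2.03 in WT. A role of the clock in the members' changes was not tested.

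In the other 3 comparisons of KO with WT, none of the 10 genes passed edgeR's test. The background was 0.209% of genes called in 60-day males, 0.300% in 30-day females and 0.0545% in 30-day males, and DESeq2 and limma-voom also called 0 members in each. One member had an unadjusted p below 0.05 in each comparison: Cyp1a2 in 60-day males, Tbx3 in 30-day females and Glul in 30-day males. In 60-day males Cyp1a2 had 244, 278, 309 and 239 CPM in KO, against 367, 377, 401 and 332 CPM in WT. The groups did not overlap, and the log2 fold change was -0.46 ± 0.16 (edgeR adjusted p = 0.265). Oat was also apart in 60-day males, with 493, 384, 496 and 354 CPM in KO against 331, 270.4, 298 and 251 CPM in WT (log2 fold change 0.59 ± 0.31, edgeR adjusted p = 0.518); groups were apart for 4.89% of all genes there. Slc1a2 had a 95% interval from -1.24 to 0.39 in 60-day males and from -0.89 to 0.71 in 30-day females, neither of which reaches its change of -2.34 in 60-day females. The median over the members was 0.16 in 60-day males, 0.04 in 30-day females and 0.06 in 30-day males, against medians over all genes of 0.00, 0.01 and 0.00.

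**Figure D2:**
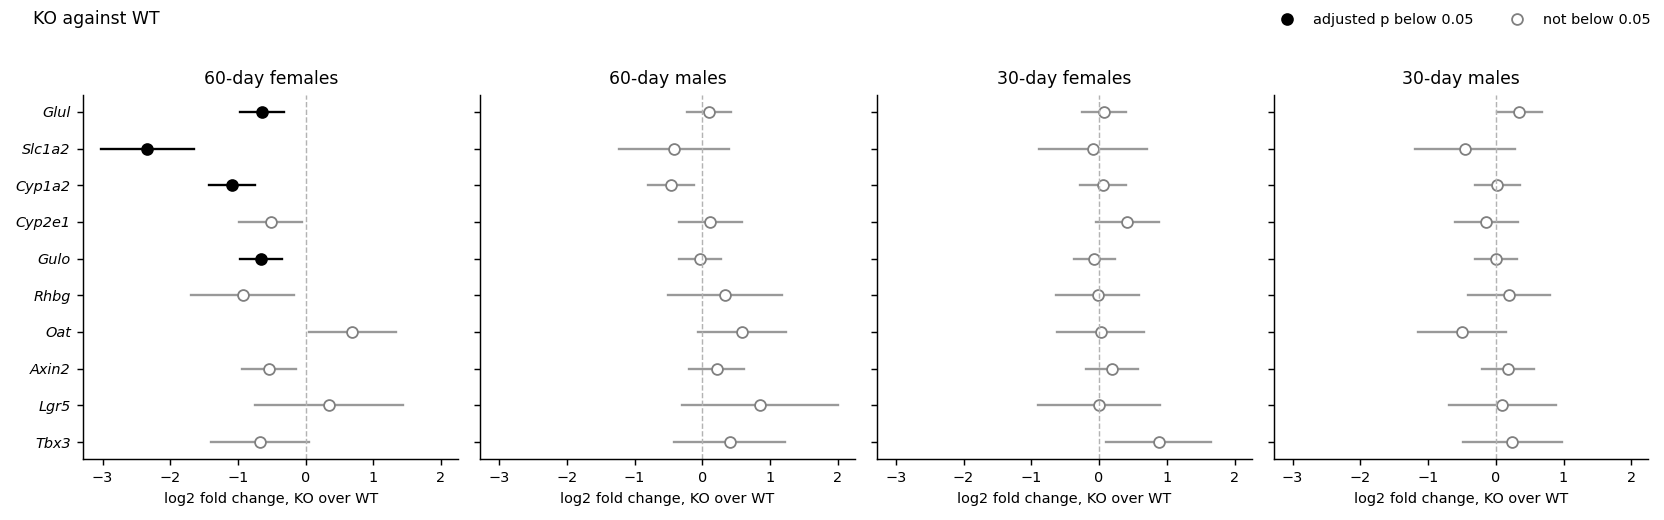
Log2 fold change of KO over WT (horizontal axis) for each pericentral gene in 4 comparisons, with 95% confidence intervals; filled points passed an adjusted p of 0.05 in edgeR's quasi-likelihood test. The 4 filled points, Glul, Slc1a2, Cyp1a2 and Gulo, all lie left of 0 in 60-day females.

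Whether the change in KO differed between ages or sexes was tested directly. The KO-minus-WT difference at 60 days minus that at 30 days, in females, was -2.25 ± 0.51 log2 units for Slc1a2 (adjusted p = 0.0135, edgeR) and -1.15 ± 0.23 for Cyp1a2 (adjusted p = 0.00638, edgeR). These were 2 of the 10 genes, against 2.96% of all genes. An unadjusted p below 0.05 was found for 7 members, a count without an all-gene share to set it against. Limma-voom called Cyp1a2 but not Slc1a2 (adjusted p = 0.0537), and an edgeR fit to these 4 groups alone called neither (0.0591 for Cyp1a2 and 0.0965 for Slc1a2) but called Tbx3 (-1.54 log2 units, adjusted p = 0.0113). Glul had -0.72 ± 0.22 (edgeR adjusted p = 0.0732). Without 30-day KO female replicate 3, Slc1a2 had an adjusted p of 0.0513, and without 60-day WT female replicate 1, Glul had one of 0.00927. Cyp2e1, at -0.94 ± 0.32 (edgeR adjusted p = 0.101), reached 0.046 without 60-day KO replicate 2. The same difference in males passed for none of the 10 (2 at an unadjusted p below 0.05, 0 by DESeq2 and 0 by limma-voom; 0.00909% of genes called).

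The KO-minus-WT difference in males minus that in females, at 60 days, passed for none of the 10 genes in edgeR, against 0.136% of all genes. An unadjusted p below 0.05 was reached by 6, again without an all-gene share, DESeq2 called 1 and limma-voom called 0. Slc1a2 had 1.92 ± 0.52 log2 units (edgeR adjusted p = 0.127) and Glul 0.75 ± 0.22 (adjusted p = 0.185). Without 60-day WT female replicate 1, both passed, at 0.0176 and 0.0202. At 30 days none passed, and none had an unadjusted p below 0.05 (0 by DESeq2 and 0 by limma-voom, with 0% of all genes called by edgeR).

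At 60 days, 8 of the 10 genes were lower in WT males than in WT females and none was higher, with a median of -1.17 on the log2 scale against 0.00 over all genes; 12.7% of all genes were called lower. Slc1a2 had 2.59, 1.49, 1.14 and 2.31 CPM in WT males, each below the lowest WT female, and was 6.45-fold lower (log2 fold change -2.69 ± 0.34, edgeR adjusted p = 5.1e-07). Tbx3 was 3.98-fold lower, Cyp2e1 3.24-fold, Cyp1a2 2.80-fold, Oat 2.25-fold, Rhbg 2.25-fold, Glul 2.12-fold and Axin2 1.80-fold. Groups did not overlap for 7 of these 8, all but Rhbg, against 10.9% of all genes in that direction. The call of Rhbg was lost without WT female replicate 4 (adjusted p = 0.248, edgeR) and without either of WT male replicates 2 and 3. Gulo had a log2 fold change of 0.14 ± 0.15. The same 4 libraries of 60-day WT females serve here, in KO against WT in 60-day females and in 60 against 30 days in WT females. They also enter the interactions of age and genotype in females and of sex and genotype at 60 days. These results are therefore not independent of one another. That group had the highest mean of the 8 groups for Glul, Slc1a2, Cyp1a2, Cyp2e1, Axin2 and Tbx3, and the highest Cpa1.

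In 60-day KO rats, 3 of the 10 genes were lower in males, against 8.89% of all genes, and 1 was higher, against 9.63%. Oat was 2.42-fold lower, Cyp2e1 2.09-fold and Cyp1a2 1.81-fold, and Gulo was 1.70-fold higher (edgeR adjusted p-values of 2.91e-04 to 0.00471). Slc1a2 had a log2 fold change of -0.77 ± 0.39 (edgeR adjusted p = 0.179) and Glul of -0.33 ± 0.16 (adjusted p = 0.155). Tbx3 had -0.92 ± 0.37 (adjusted p = 0.091, edgeR), and 0.00344 without KO male replicate 1. The KO and WT sex differences are set side by side; the tests of their difference are those given above. At 30 days, none of the 10 genes passed edgeR's test between males and females in KO (2.24% of all genes called) or in WT (2.07%), 1 in each had an unadjusted p below 0.05, and DESeq2 and limma-voom called 0. Tbx3 was that gene in WT, with 9.28, 7.77, 18.1 and 8.52 CPM in males against 4.20, 4.61, 5.75 and 7.24 CPM in females (log2 fold change 1.01 ± 0.37, edgeR adjusted p = 0.208), a sign opposite to that at 60 days.

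**Figure D3:**
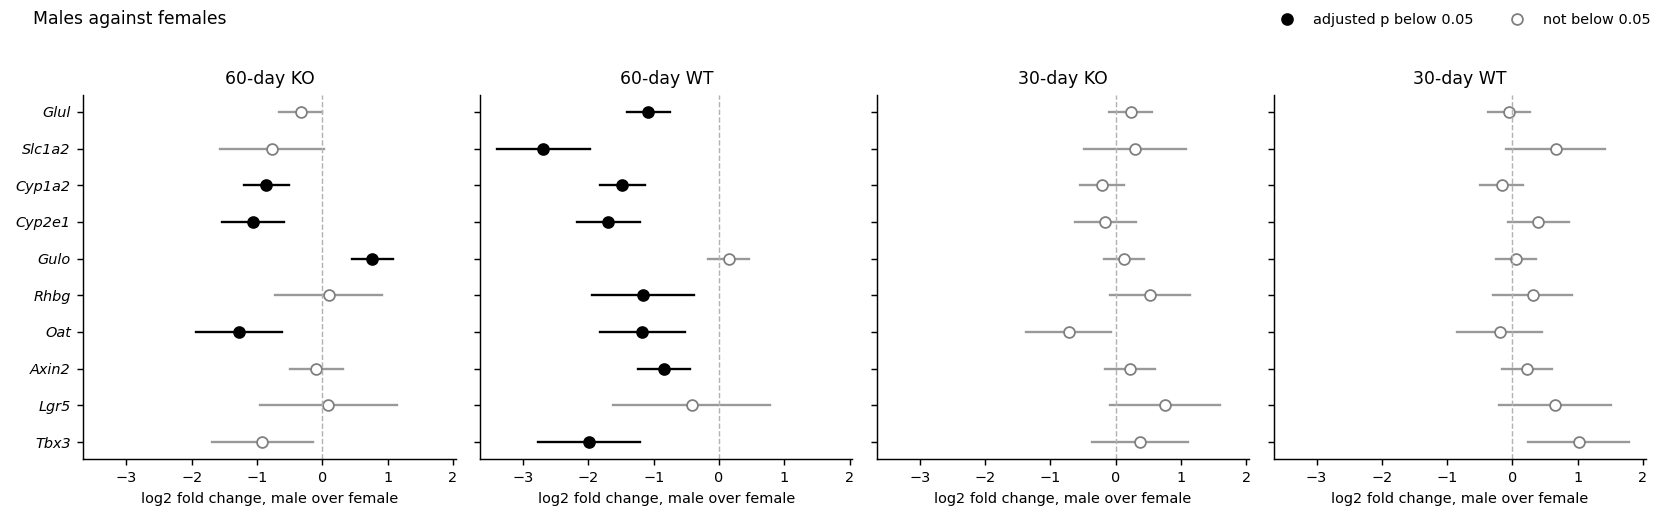
Log2 fold change of males over females (horizontal axis) for each pericentral gene in 4 comparisons, with 95% confidence intervals; filled points passed an adjusted p of 0.05 in edgeR's quasi-likelihood test. In 60-day KO rats 3 filled points lie left of 0 and Gulo lies right of it; in 60-day WT rats 8 lie left of 0.

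Between 30 and 60 days, WT females were the group in which most members were called higher at the older age, 6 of 10, against 16.0% of all genes, with 2 lower, against 17.1%. Slc1a2 was 9.59-fold higher at 60 days (log2 fold change 3.26 ± 0.35, edgeR adjusted p = 1.74e-08), Tbx3 4.47-fold, Cyp2e1 2.38-fold, Glul 1.57-fold, Axin2 1.45-fold and Cyp1a2 1.43-fold. Rhbg was 2.37-fold lower and Gulo 1.38-fold lower. Axin2 was not called without 60-day WT replicate 3 (adjusted p = 0.222, edgeR) or without 30-day WT replicates 2 or 4. Cyp1a2 was not called without 60-day replicate 4 or 30-day replicates 1 or 2, and Gulo was not called without 60-day replicates 1 or 4. Oat had a log2 fold change of 0.75 ± 0.31 (adjusted p = 0.0684, edgeR) and was called without 30-day replicates 3 or 4.

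KO females had 2 members higher at 60 days, against 10.6% of all genes, and 3 lower, against 12.1%. Oat was 2.67-fold and Slc1a2 2.02-fold higher. The Slc1a2 call lay near the threshold (adjusted p = 0.0492, edgeR) and was lost in 6 of 8 fits that left out a library, with 0.238 without 60-day replicate 1. Rhbg was 4.44-fold, Gulo 2.08-fold and Cyp1a2 1.56-fold lower. Cyp1a2 had a log2 fold change of -0.64 ± 0.16 in KO females and 0.51 ± 0.16 in WT females, and Glul one of -0.06 ± 0.16 in KO females and 0.65 ± 0.16 in WT females.

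Males had fewer members higher at 60 days. In KO males 1 was higher, Oat, against 14.0% of all genes, and 5 were lower, against 14.5%: Rhbg (5.98-fold), Cyp1a2 (2.44-fold), Glul (1.54-fold), Axin2 (1.42-fold) and Gulo (1.34-fold). In WT males 0 were higher in edgeR, DESeq2 or limma-voom and 0 at an unadjusted p below 0.05, against 15.7% of all genes, and 5 were lower, against 15.8%: Rhbg (6.59-fold), Lgr5 (2.95-fold), Cyp2e1 (1.80-fold), Cyp1a2 (1.74-fold) and Axin2 (1.45-fold). The calls of Oat, Gulo and Axin2 in KO males and of Axin2 in WT males were each lost in at least 5 of 8 fits that left out a library, and that of Lgr5, which rests on few reads, in 1. In KO males Tbx3 (edgeR adjusted p = 0.176) reached 0.00824 without 60-day replicate 1 and Cyp2e1 (0.0529) reached 0.0312 without 60-day replicate 2, and in WT males Glul (0.068) reached 0.0285 without 60-day replicate 1. Rhbg was called lower at 60 days in all 4 comparisons, its groups overlapping in WT females, with 1.42 to 12.4 CPM in the 60-day libraries and 10.3 to 22.1 CPM in the 30-day libraries. Gulo had a negative log2 fold change and groups that did not overlap in all 4, and was called in all but WT males (-0.38, edgeR adjusted p = 0.0564).

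**Figure D4:**
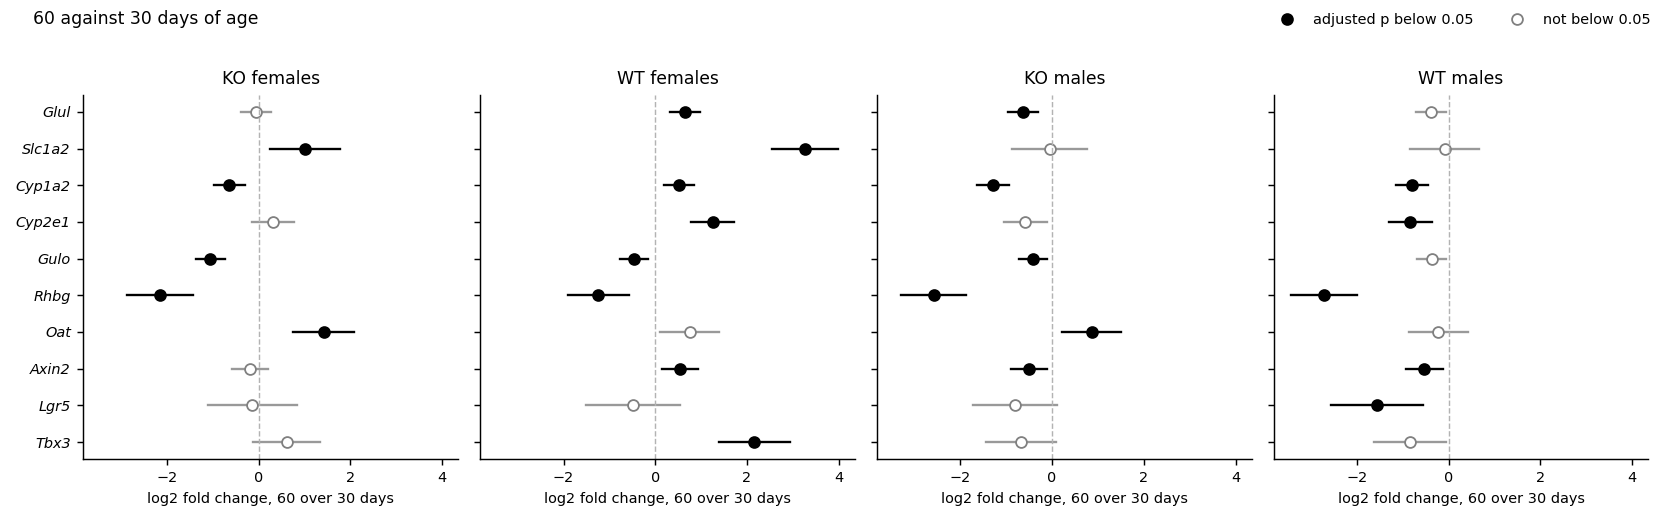
Log2 fold change of 60 over 30 days (horizontal axis) for each pericentral gene in KO females, WT females, KO males and WT males, with 95% confidence intervals; filled points passed an adjusted p of 0.05 in edgeR's quasi-likelihood test. Slc1a2 reaches 3.26 in WT females and 1.01 in KO females, and Rhbg lies left of 0 in every panel.

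Other genes of the zones and of the Wnt pathway were examined in 60-day KO and WT females. Of 21 further pericentral genes tested, 3 were lower and 1 was higher in KO, with a median of -0.01. Nr1i3, the nuclear receptor CAR, was 4.87-fold lower, and Prodh, proline dehydrogenase, 1.67-fold. Slco1b2, an organic anion carrier, had a log2 fold change of -0.59, and Ephx1, microsomal epoxide hydrolase, was 2.42-fold higher (edgeR adjusted p-values of 0.00321 to 0.0303). Limma-voom did not call Nr1i3 (adjusted p = 0.0718), nor did edgeR without WT replicate 4 (0.0593). Slco1b2 was called in 2 and Prodh in 5 of 8 edgeR fits that left out a library, and neither was called without KO replicate 1 (0.0859 and 0.0763). Of 18 periportal genes tested, 2 were lower and 0 higher in edgeR (2 higher at an unadjusted p below 0.05, 1 by DESeq2 and 1 by limma-voom), with a median of 0.02. These were Pck1, of gluconeogenesis (2.82-fold, adjusted p = 0.00675, edgeR), and Ass1, of the urea cycle (log2 fold change -0.59, adjusted p = 0.0119). The members' median was -0.65, and the difference between lists was not tested.

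None of 9 Wnt ligands, R-spondins and secreted regulators tested was called in these females by edgeR, with 2 higher and 2 lower at an unadjusted p below 0.05. Dkk3, a Dickkopf family member, was called higher by DESeq2 (adjusted p = 0.0371) but not by edgeR (log2 fold change 1.52, adjusted p = 0.0837; 0.972 without KO replicate 1) or limma-voom, which called 0. Wnt5a, a noncanonical ligand, had a log2 fold change of 0.89 (edgeR adjusted p = 0.23). Wnt9b, a central vein ligand, had 0.641 CPM in KO and 1.10 CPM in WT (log2 fold change -0.76 ± 0.29, edgeR adjusted p = 0.114), and Rspo3 1.66 CPM in KO and 2.16 CPM in WT (-0.37 ± 0.27, adjusted p = 0.462). Wnt2 and Znrf3 were not analysed here. Of 8 receptors tested, Fzd1 (1.82-fold) and Lgr4, an R-spondin receptor (1.35-fold), were lower and Fzd6 was higher (1.78-fold), with edgeR adjusted p-values of 1.17e-04 to 0.0177. Lgr4 was not called without WT replicate 3 (adjusted p = 0.1003, edgeR) or KO replicate 3 (0.0539). None of 13 intracellular transducers was called by edgeR, DESeq2 or limma-voom or had an unadjusted p below 0.05, with log2 fold changes of -0.09 for Ctnnb1 (β-catenin) and 0.13 for Tcf7l2. Of 7 Wnt target and feedback genes, Sp5 was lower, at 0.364 CPM in KO and 1.19 CPM in WT (3.33-fold, edgeR adjusted p = 0.0256), and Rnf43 was not called (0.11). Sp5 was called in 3 of 8 edgeR fits that left out a library, with adjusted p-values up to 0.0703. Markers of central vein endothelium, 7 in the table, summed to 11.5 to 19.0 CPM in KO females and 13.5 to 17.8 CPM in WT females. In 30-day females, all 9 Wnt ligands, R-spondins and secreted regulators had negative log2 fold changes, with a median of -0.85 against 0.01 over all genes. EdgeR called 0 of them, DESeq2 called 1 lower, and 7 were lower at an unadjusted p below 0.05. In males most were positive, 8 of 9 at 30 days and 7 of 9 at 60 days. All 8 stellate cell markers tested were also negative in 30-day females (median -0.39), with 1 called lower by edgeR. Stellate markers summed to 904 to 1047 CPM in KO and 1110 to 1492 CPM in WT there. Central vein endothelium markers, which include Wnt9b and Rspo3, summed to 15.5 to 17.2 CPM in KO and 17.4 to 21.7 CPM in WT. Of 9 Kupffer cell markers 8 were positive, and of 7 endothelium markers 5. A link between these lists was not tested. The title number and genotype can hardly be told apart in 30-day females.

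Among 15 genes of glutamine and ornithine metabolism beyond the members, 3 were lower, Gpt (2.11-fold), Prodh and Glud1 (1.33-fold), and Aldh4a1 was higher (1.27-fold), with a median of 0.02. Aldh4a1 was called in 1 of 8 edgeR fits that left out a library, and Gpt was not called without WT replicate 2 (adjusted p = 0.0545, edgeR). Of 6 genes of vitamin C supply, Slc23a2, an ascorbate transporter, was higher (1.27-fold, edgeR adjusted p = 0.0237), though not without KO replicate 1 (0.118) or WT replicate 3 (0.0695). Ugdh, UDP-glucose dehydrogenase, was called lower by DESeq2 (adjusted p = 0.0242) and limma-voom (0.0452) but not by edgeR (log2 fold change -0.59, adjusted p = 0.0504). None of 5 genes of the Ah receptor pathway, the inducer of Cyp1a2, was called in 60-day females by edgeR, DESeq2 or limma-voom, and 1 had an unadjusted p below 0.05. Ahr had 59.7 CPM in KO and 88.3 CPM in WT (log2 fold change -0.56 ± 0.21, edgeR adjusted p = 0.114), and Cyp1a1 had 0.497 CPM in KO and 0.549 CPM in WT. In 30-day females Cyp1a1 was 4.63-fold lower in KO (edgeR adjusted p = 0.0238), but limma-voom did not call it (0.0941) and it was called in 2 of 8 edgeR fits that left out a library, while Cyp1a2 had a log2 fold change of 0.06 ± 0.16. Of 14 glucocorticoid target genes, Zbtb16 (3.82-fold), Pck1 and Klf9 (1.66-fold) were lower in 60-day KO females and none was higher by edgeR (0 at an unadjusted p below 0.05, 0 by DESeq2 and 0 by limma-voom), with a median of -0.38. Klf9 was called in 1 of 8 edgeR fits that left out a library (adjusted p up to 0.163). Nr3c1, the glucocorticoid receptor, had a log2 fold change of -0.02 ± 0.12.

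Finally, the libraries were used to ask which members varied with Glul inside a group, on log2 CPM minus the group mean over 32 libraries. The 9 members gave Pearson correlations of -0.33 to 0.67, with permutation p-values (100000 permutations within groups, two-sided) adjusted over the 9. Rhbg had r = 0.668 (permutation p = 0.0095, adjusted 0.0855) and Spearman's rho = 0.504 (permutation p = 0.0128, adjusted 0.115). Without the libraries farthest in Glul, 60-day WT female replicates 1 and 4, r was 0.360, so the relation rested on them. Slc1a2 had r = 0.464 (permutation p = 0.0468, adjusted 0.211), rho = 0.383 (permutation p = 0.0673, adjusted 0.202) and r = 0.296 without the same pair. No member passed an adjusted p of 0.05 over the 32 libraries. Without 60-day KO female replicate 1, Rhbg did by Pearson's r (0.725, permutation p = 0.00362, adjusted 0.0326) and not by Spearman's rho (0.568, permutation p = 0.00659, adjusted 0.0593), and r was 0.473 when the WT pair was left out as well. Over all 11001 other genes, the 5 with the highest r were Rhbg, Copa (0.663), Rala (0.661), Pcsk7 (0.655) and Fam45a (0.638), as a description of these libraries. Slc1a2 was 141st, Axin2 726th, Tbx3 1755th, Cyp1a2 1975th and Lgr5 2958th in that order. Cyp2e1 (6554th), Gulo (7465th) and Oat (10249th) had a negative r.

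**Figure D5:**
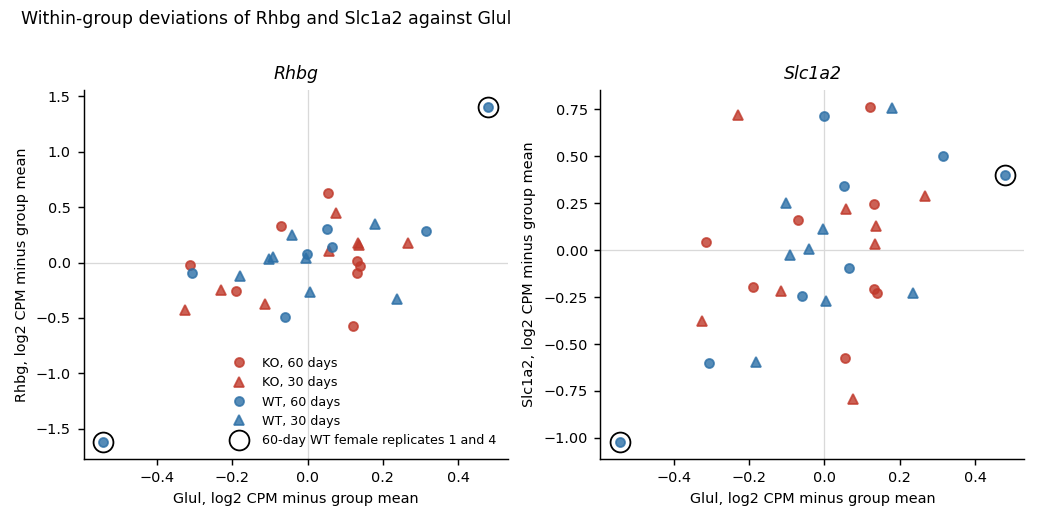
Deviation of each library from its group mean, in log2 CPM, for Rhbg (left) and Slc1a2 (right) on the vertical axis against Glul on the horizontal axis; red is KO, blue is WT, circles are 60 days and triangles 30 days. The ringed libraries, 60-day WT female replicates 1 and 4, are the lowest and highest in Glul, and r without them is 0.360 for Rhbg and 0.296 for Slc1a2.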

How the data were processed

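Total liver RNA was made into stranded mRNA libraries, per the labels' protocols. STAR, Cufflinks, limma and the genome build Rnor_5.0 are named in the submitters' processing notes, without roles, and no source used here says whether counting used strand. The authors' deposited tables hold whole-number counts per gene for 32 libraries, and log2 values that equal log2 of the count plus 0.5, scaled to the total of the table's rows as CPM, checked on the values. Rows that name no gene stayed out of the tests; reads on no feature came to 18.0 to 21.2%. Glul has pseudogenes, and how shared reads were counted is not given.

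The counts were fitted with edgeR 4.0.16 in R 4.3.3 (filterByExpr with a minimum count of 10, TMM factors, robust quasi-likelihood fit of 8 group means, 24 residual degrees of freedom), checked on simulated data. SE is of the log2 fold change. Intervals are 95%. CPM is not divided by gene length, so levels are not compared between genes. Correlations used 100000 permutations within groups.

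Alternatives were other scalings, no filter, DESeq2 1.42.0, limma 3.58.1 (voom, and trend on the deposited log2 values), the compared groups alone, a clock score as covariate, the number in the 30-day titles as covariate, and each library left out. The genes named are the 10 members, up to 4 called genes of each other list with the smallest adjusted p per comparison of KO with WT, and a fixed set of Wnt, Ah receptor and glucocorticoid receptor genes. Outside this rule, Dkk3, Wnt5a and Ugdh were also named, as were Cpa1, Cela1, Prss1 and Ins1 for the marker sums. Serpina6 was named as the target, and the genes most like Glul as a description. The members and lists were chosen with earlier results of these data known, so none is independent evidence. Promoter windows come from RefSeq on GRCr8, a build other than that of the counts.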

Additional observations from a re-analysis of the deposited data

Results flagged for a closer look

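Of 80 sets of 4 libraries (10 genes in 8 groups), 8 held a library far from the other 3 by Dixon's test at the 95% level; chance gives about 1 in 20. In CPM these were Glul in 30-day WT male replicate 3 (453), Gulo in 60-day WT male replicate 3 (503), Rhbg in 30-day KO male replicate 4 (14.5), Oat in 30-day KO male replicate 1 (160.1) and KO female replicate 3 (634), Axin2 in 60-day WT female replicate 3 (26.4), and Tbx3 in 30-day KO female replicate 2 (6.47) and WT male replicate 3 (18.1). WT male replicate 3 of 30 days was far from the others in both Glul and Tbx3.

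The change in KO females differed between 60 and 30 days for Slc1a2, by -2.25 log2 units, and for Cyp1a2, by -1.15 (edgeR interaction test). Limma-voom did not call Slc1a2 (adjusted p = 0.0537), and an edgeR fit to the 4 groups alone called neither (0.0965 for Slc1a2 and 0.0591 for Cyp1a2).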

How the results depend on the processing

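No paired analysis was possible because no label ties a library of one group to a single library of another: the 30-day titles share only the numbers 1 and 2, each held by several libraries and of unstated meaning, and the 60-day titles have no such number. With that number as covariate, 0 members were called in the KO comparisons of 30 days. In 60-day females the 4 members lower in KO were also 4 under RLE and upper-quartile scaling, without a filter, with DESeq2, limma-voom and the deposited log2 values, 2 with the clock score as covariate, 1 in a fit to those 8 libraries, and 3 to 5 when a library was left out; over all genes, 745 calls became 141 with the clock score, 56 in the fit to 8 libraries and 399 to 978 with a library left out. The KO comparisons with no member called stayed at 0 under every alternative run. For 60 against 30 days, the members called were 3 without a filter and 3 to 6 with a library left out in KO males, 5 in a fit to the compared groups in WT females, and 3 with the clock score and 3 to 5 with a library left out in WT males. The interaction of sex and genotype at 60 days called 1 by DESeq2 and 0 to 2 with a library left out. That of age and genotype in females called 1 by limma-voom, 1 (Tbx3) in a fit to the compared groups and 1 to 4 with a library left out. The correlation of Glul with Rhbg was 0.725 without 60-day KO female replicate 1 (adjusted p = 0.0326). The cause of these shifts was not tested.

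Counts over all genes moved by more than 1.5 times with DESeq2 in 30-day females (33 to 80), 30-day males (6 to 28) and 60-day males (23 to 69) for KO against WT, in the interaction of sex and genotype at 60 days (15 to 89), in that of age and genotype in females (326 to 567) and males (1 to 18), and between the sexes in 30-day KO (246 to 393). In fits to the compared groups alone, 33 became 8 in 30-day females and 23 became 8 in 60-day males for KO against WT, and 246 became 461, 2037 became 1333 and 2901 became 1914 between the sexes in 30-day KO, 60-day KO and 60-day WT. The interaction of sex and genotype at 60 days gave 2, and that of age and genotype gave 93 in females and 4 in males. In 30-day females the 33 became 4 with the clock score, 15 on the deposited values, 18 without a filter, and 50 and 8 in the fit to 30-day libraries without and with the title number; 30-day males gave 3 with the clock score and 16 in the 30-day fit, and 60-day males 9 on the deposited values and 15 without a filter. The sexes at 30 days gave 401 in KO and 358 in WT (against 228) in the 30-day fit, and 110 in KO with the title number, and limma-voom gave 10 against 15 for sex and genotype at 60 days. With a library left out, KO against WT gave 4 to 60 in 30-day females, 1 to 7 in 30-day males and 2 to 46 in 60-day males, sex and genotype at 60 days gave 5 to 126, and age and genotype gave 191 to 595 in females and 0 to 2 in males; the sexes at 30 days gave 124 to 225 in KO and 119 to 209 in WT. The deposited log2 values lowered the median of all genes by 0.12 to 0.21 between 30 and 60 days. At 30 days, all 4 KO females and 1 of 4 WT females had the number 2 in their titles, so in females that number and genotype can hardly be told apart. Low counts limit Lgr5.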
